A study of Homo sapiens with 4 samples.

Results

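Potassium channel genes were taken as every gene whose symbol is KCN followed by letters and a closing number. There were 95 such genes among the 62696 in the count tables, and antisense, intronic and pseudogene entries with KCN in their names were left out by that rule. By role they were 32 voltage-gated pore subunits, 8 members of the EAG (ether-à-go-go) family, 16 inward rectifiers, 15 two-pore channels, 8 calcium-activated channels with their sodium- and pH-gated relatives, and 16 auxiliary subunits. Of the 95 genes, 51 had a level of at least 1 CPM (counts scaled to a common library size), taken as the mean of the 2 group means, and 44 did not.

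Potassium channels let potassium leave the cell and so pull the membrane potential negative. Voltage-gated members open on depolarisation, inward rectifiers and two-pore channels set the resting potential, and calcium-activated members couple calcium entry to repolarisation. Auxiliary subunits have no pore and alter the gating or surface delivery of the others. EAG family channels carry a cyclic-nucleotide-binding homology domain, and KCNH2 (hERG) carries the rapid repolarising current of heart muscle. Channels of this class are also found in dividing and embryonal cells, where they take part in cell volume and cycle control.

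The RNA came from NT2 (NTERA-2), a line derived from human embryonal carcinoma that is able to differentiate into neurons, grown in medium with 10% serum. There was 1 library of cells with an empty vector, labelled wild type, and there were 3 libraries labelled HYDIN2 knockdown, numbered replicates 1, 2 and 3. All of them were total RNA depleted of ribosomal RNA. The labels do not say how the knockdown was made, or whether the replicates came from separate cultures, so the spread between them may be technical.

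Library totals ran from 25181737 counts (empty vector) to 62904698 (replicate 1), with 61627449 in replicate 2 and 28552070 in replicate 3. HYDIN2, the knockdown target by the labels, had 12 counts with the empty vector and 150, 112 and 11 in replicates 1, 2 and 3. That was 0.50 CPM against 2.41, 1.88 and 0.352. The ratio of HYDIN2 to the empty vector was 4.82 (95% interval 2.11 to 13.5), 3.75 (1.62 to 10.7) and 0.704 (0.180 to 2.7). HYDIN2 was thus higher in replicates 1 and 2, against their label, and a lower level in replicate 3 was not detectable at this depth. HYDIN2 is a near-identical copy of part of HYDIN, which makes its counts uncertain. The count columns carry other names, a LacZ control and GKAP_KIF27 sets, which do not match the group labels. Each library is therefore called by its label, and no direction given here is known to follow from less HYDIN2. Replicates 1 and 2 lay close together and replicate 3 stood apart: of 15880 genes at 1 CPM or more, 0.302% were at least 2-fold apart between replicates 1 and 2, against 21.6% between 1 and 3 and 22.9% between 2 and 3. Among the 51 potassium channel genes these counts were 1, 15 and 17. All 10 pluripotency markers (among them POU5F1, SOX2 and NANOG) had a count in each library, but ZFP42 had only 4 against 4, 4 and 2. Over the 9 that passed the level filter the median log2 difference was -0.26, -0.15 and -1.06 in replicates 1, 2 and 3. The summed level of the 10 was 6988 CPM with the empty vector and 6981, 7217 and 4136 CPM in the replicates, mostly LIN28A and DPPA4. Its members differed: DNMT3B was called lower, while NANOG had 502 CPM against 820, 817 and 323. These are bulk samples, so fewer cells of a type and less RNA per cell cannot be told apart.

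With 1 empty vector library the control side has no replicate check, and the 3 differences of a gene share that library. A gene was therefore called higher if replicates 1, 2 and 3 were all 2-fold or more above the empty vector on the log2 CPM scale, and called lower if all were 2-fold or more below it. By this rule 3 potassium channel genes were higher (KCNC1, KCNJ2 and KCNMA1) and 6 were lower (KCNH6, KCNH2, KCNS3, KCNIP3, KCNJ4 and KCNK6) among the 51 that passed the level filter. The 3 higher genes are 5.88% of those, beside 3.66% of all 15880 genes, and the 6 lower genes are 11.8%, beside 2.72%. In either direction they are 9 genes or 17.6%, beside 6.38%. In KCNH6, KCNIP3, KCNJ4 and KCNK6 the labelled knockdown mean was under 1 CPM, and in KCNC1 and KCNJ2 the empty vector level was. Those 6 genes passed the filter through their high group alone, so the shares are a description of what passed and carry no weight of their own. KCNH2, KCNS3 and KCNMA1 were above 1 CPM in both groups. Scaling by total counts gave 734 higher and 312 lower genes over the whole table, against 581 and 432 with the scaling used here.

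In edgeR's quasi-likelihood test with Benjamini-Hochberg adjustment, 0 of 80 potassium channel genes tested were called, as were 0 of 26029 genes (0%). At an unadjusted p under 0.05 there were 13 of the 80, 6 higher and 7 lower, where the whole table gave 11.6%. The lowest adjusted p of any potassium channel gene in edgeR's test was 0.358. The Wald test of DESeq2 called 2 potassium channel genes, KCNS3 and KCNH6, both lower, against 1.53% of all genes with an adjusted p. The voom test in limma called 0 of 80, with 8 of the 80 at an unadjusted p under 0.05, where the whole table gave 8.58%.

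The median over the 51 genes of the mean log2 difference was -0.27, beside -0.02 over all genes that passed. With a level minimum of 0.1 CPM, which lets in 80 potassium channel genes, it was -0.042. Over the 51 genes the median was -0.28, -0.28 and -0.25 in replicates 1, 2 and 3, where all genes gave 0.03, 0.05 and -0.15. In 13 genes all 3 libraries lay above the empty vector library, in 22 all lay below it, and in 16 they lay on both sides. The mean difference was above 0 in 41.2% of the 51 genes, beside 48.8% of all genes that passed. Shares of all genes with the 3 libraries on the same side are not given, so the counts 13 and 22 describe the 51 genes only. In all 3 libraries 23 of the 51 genes stayed within 2-fold (45.1%), beside 61.6% of all genes, and 11 of the 51 were under 1 CPM in one group. That difference was not tested.

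**Figure D1:**
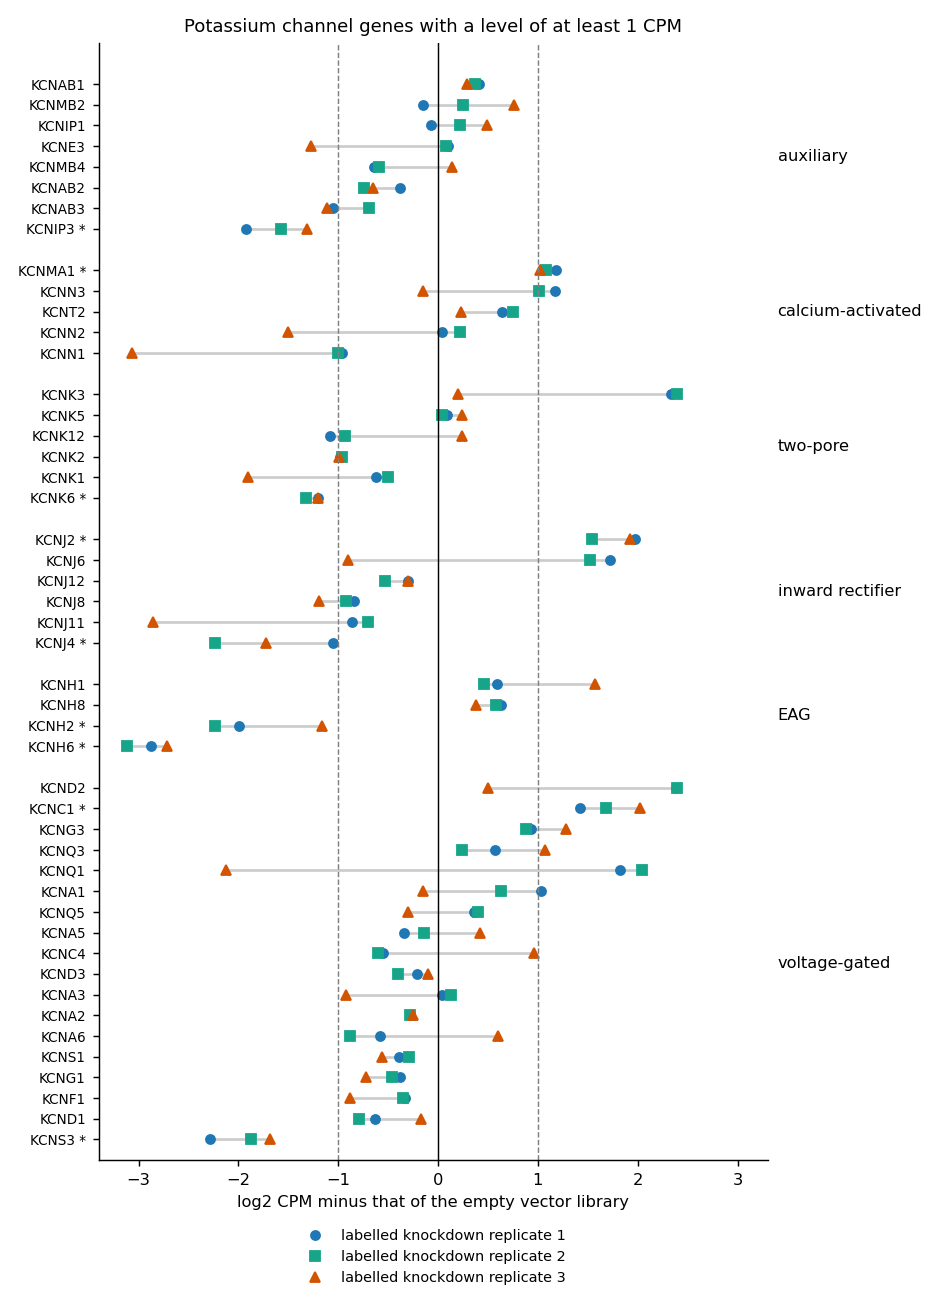
Difference in log2 CPM from the empty vector library (horizontal axis) for 47 of the 51 potassium channel genes with a level of at least 1 CPM, ordered by family; points are the labelled knockdown replicates 1, 2 and 3, grey lines join the lowest and highest of them, and dashed lines mark 2-fold. The 9 genes marked with a star lie beyond the same dashed line in all 3 libraries, and in genes such as KCNQ1, KCNN1, KCND2 and KCNK3 replicate 3 lies far from the other 2.

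The sequence just upstream of the RefSeq start was read for 4 of the 9 called genes, a pair of EAG genes that were lower and a pair of channel genes that were higher in each labelled knockdown library. They are printed 5′ to 3′ on the gene's strand, from GRCh38.p14, and end at the base before the start site or before the first annotated exon. Capitals mark GC boxes, the letters GGGCGG or, on the other strand, CCGCCC. KCNH6 is shown from chr17:63523108-63523333 (plus strand), KCNH2 from chr7:150978322-150978571 (minus strand), KCNC1 from chr11:17734531-17734773 (plus strand) and KCNJ2 from chr17:70169282-70169531 (plus strand). The KCNJ2 stretch is upstream of the RefSeq start but lies inside the annotated span of KCNJ2 given below, unlike the stretches of the other genes shown.
KCNH6: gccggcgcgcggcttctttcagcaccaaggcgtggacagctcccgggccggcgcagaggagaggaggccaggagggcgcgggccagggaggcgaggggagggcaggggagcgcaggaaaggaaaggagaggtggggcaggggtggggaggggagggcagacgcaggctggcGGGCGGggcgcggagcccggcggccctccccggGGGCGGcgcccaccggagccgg
KCNH2: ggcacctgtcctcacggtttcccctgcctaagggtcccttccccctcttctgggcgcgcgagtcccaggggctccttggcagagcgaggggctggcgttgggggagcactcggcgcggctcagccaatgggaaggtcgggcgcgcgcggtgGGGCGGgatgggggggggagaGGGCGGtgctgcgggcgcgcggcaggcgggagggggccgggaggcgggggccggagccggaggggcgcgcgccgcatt
KCNC1: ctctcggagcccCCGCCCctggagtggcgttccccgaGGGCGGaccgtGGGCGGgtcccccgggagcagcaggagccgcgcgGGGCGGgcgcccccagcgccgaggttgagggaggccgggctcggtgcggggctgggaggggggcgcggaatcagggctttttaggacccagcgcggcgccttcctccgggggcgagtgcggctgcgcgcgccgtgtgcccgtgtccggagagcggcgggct
KCNJ2: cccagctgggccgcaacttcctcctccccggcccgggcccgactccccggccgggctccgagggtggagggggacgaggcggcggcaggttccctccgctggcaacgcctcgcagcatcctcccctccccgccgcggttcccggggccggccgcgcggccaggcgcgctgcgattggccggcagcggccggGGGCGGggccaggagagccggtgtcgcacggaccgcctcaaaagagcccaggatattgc

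These windows are rich in G and C, with 78.8% G and C in KCNH6, 77.2% in KCNH2, 79.0% in KCNC1 and 77.6% in KCNJ2, whether the gene was lower or higher. KCNH6 and KCNH2 each held 2 GC boxes, KCNC1 held 4 and KCNJ2 held 1. Of the 95 genes, 71 had a 250-base window in the RefSeq table, taking the most upstream start of each gene. A GC box on either strand was present in 41 of these 71 (57.7%), against 42.6% of 35116 windows of the same length. The 35116 windows, which stand behind every value over all windows here, could hold several starts of a gene. The 2 sets are therefore unlike. A GC box was present in 25 of the 37 matched genes that passed the level filter, in all 6 of the EAG genes matched and in 8 of the 9 called genes. The median window of the 71 held 64.8% G and C, beside 58% over all windows, and a GC box is made of G and C alone. The letters TATAAA (or TTTATA) were present in 7 of the 71 and 10.7% of all windows, and in none of the EAG or called genes. The octamer ATGCAAAT (or ATTTGCAT), the letters read by POU factors, was in 2 of the 71 and 1.63% of all windows. A match is a description of letters and not a binding site.

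The EAG family was the one in which the largest difference of the whole set fell. KCNH6, which encodes an ERG channel subunit and lies at chr17:63523334-63548977 on the plus strand (ENSG00000173826.15), had 92 counts with the empty vector and 30, 24 and 17 counts in replicates 1, 2 and 3. On the CPM scale these were 3.83 against 0.482, 0.402 and 0.544, a mean of 0.476 ± 0.0712 (SD, n = 3). All 3 labelled knockdown libraries were low and close to each other, with replicate 3 on the side of replicates 1 and 2. The ratio of each to the empty vector library was 0.126 (95% interval 0.0652 to 0.229), 0.105 (0.0506 to 0.201) and 0.142 (0.0595 to 0.298), intervals that cover counting error only. In edgeR's quasi-likelihood test the log2 fold change was -3.01 ± 0.49 (SE) with an adjusted p of 0.358.

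KCNH2 (hERG, ENSG00000055118.17, chr7:150944961-150978315, minus strand), the other ERG subunit above the filter, was the most abundant EAG gene. It had 276 counts with the empty vector and 178, 144 and 160 in replicates 1, 2 and 3, or 11.5 CPM against 2.86, 2.41 and 5.12. Each labelled knockdown library was below the empty vector library, and replicate 3 lay between it and replicates 1 and 2. The log2 differences were -1.99, -2.23 and -1.16, a mean of -1.79 ± 0.56 (SD, n = 3), with an adjusted p of 0.372 in edgeR's test, and the call was lost when total counts set the scale. KCNH7, the remaining ERG gene, had 0 counts with the empty vector and 7, 16 and 10 in replicates 1, 2 and 3. Replicate 1 was below the floor of 3 empty vector counts (0.125 CPM), so no fold is given.

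The EAG genes proper and the ELK (EAG-like) genes lay in both directions. KCNH1, the founding EAG channel, had 1.00 CPM with the empty vector and 1.53, 1.39 and 3.07 CPM in replicates 1, 2 and 3. All were above it, and only replicate 3 was beyond 2-fold. KCNH8, an ELK channel, had 1.58 CPM against 2.47, 2.40 and 2.08, log2 differences of 0.63, 0.58 and 0.38, each with a counting interval of the ratio that included 1. KCNH5, the close relative of KCNH1, had 8 counts against 22, 19 and 20. The remaining ELK genes were as sparse: KCNH3 had 8 counts against 47, 30 and 15, and KCNH4 had 18 against 8, 13 and 20. KCNH4 was below the empty vector in each replicate, as KCNH6 and KCNH2 were, at 0.128, 0.218 and 0.640 CPM against 0.750, and the counting interval of its ratio included 1 in replicate 3. KCNH1, KCNH3 and KCNH7 overlap other annotated exons on the opposite strand, and the strand setting of the counting is not stated. Summed over the 8 genes the EAG family had 19.3 CPM with the empty vector and 8.69, 7.91 and 12.9 CPM in replicates 1, 2 and 3.

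**Figure D2:**
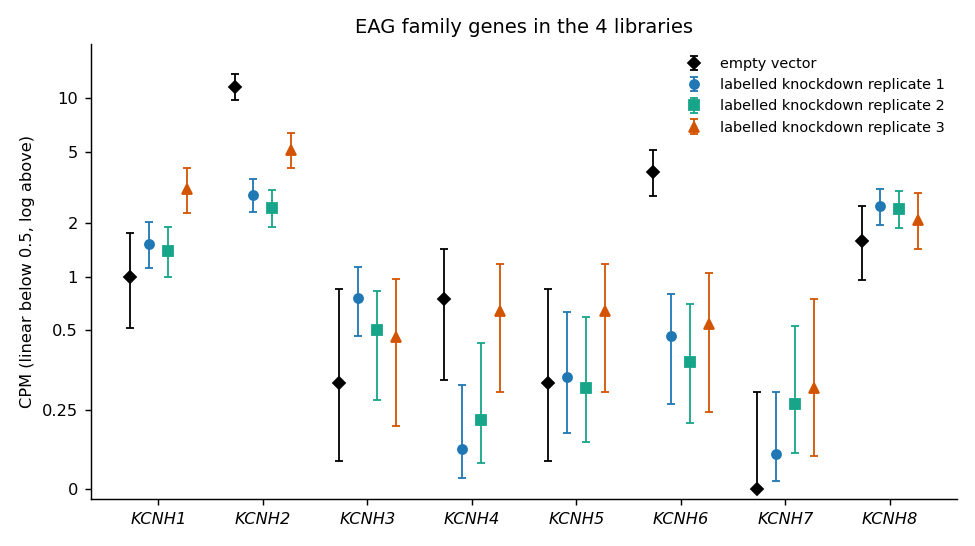
CPM of the 8 EAG family genes (vertical axis, linear below 0.5 and log above) in the empty vector library and labelled knockdown replicates 1, 2 and 3; bars are exact 95% Poisson intervals on counts divided by 2 and cover counting error only. KCNH6 and KCNH2 are lower in all 3 labelled knockdown libraries (3.83 against 0.402 to 0.544 CPM, and 11.5 against 2.41 to 5.12), while KCNH1 and KCNH8 lie above the empty vector library.

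The voltage-gated pore genes were the best represented, with 22 of 32 at 1 CPM or more and summed levels of 257 CPM with the empty vector and 227, 220 and 292 CPM in replicates 1, 2 and 3. All 3 KCND genes passed the level filter, as did 5 of 8 KCNA genes, and neither KCNV gene did. In 5 of the 22 all labelled knockdown libraries were higher, in 9 all were lower, and in 8 they lay on both sides. No share over all genes stands beside these counts, so they describe the 22 genes only. The median log2 difference was -0.15.

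KCNC1 was the only voltage-gated gene called higher, and KCNS3 the only one called lower. KCNC1 (ENSG00000129159.9, chr11:17734774-17856804, plus strand) encodes a fast channel that lets neurons fire at high rates, and had 16 counts with the empty vector and 116, 134 and 89 in replicates 1, 2 and 3. That was 0.667 CPM against 1.86, 2.24 and 2.85, with ratios of 2.80 (95% interval 1.33 to 6.78), 3.37 (1.61 to 8.12) and 4.27 (1.99 to 10.5). Removing length and GC trends lowered its mean log2 difference from 1.71 to 1.27. KCNS3 (ENSG00000170745.12, chr2:17877847-18361616, plus strand) is an electrically silent subunit that modifies other voltage-gated channels. It had 230 counts against 120, 154 and 92, or 9.58 CPM against 1.93, 2.58 and 2.94. The 3 libraries did not overlap the empty vector level, and the log2 fold change in edgeR's test was -1.95 ± 0.40 (SE) with an adjusted p of 0.358.

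KCNG3 and KCNG1, further silent modifier subunits, were among the highest channel genes and lay on opposite sides. KCNG3 had 32.3 CPM with the empty vector and 61.5, 59.4 and 78.7 in replicates 1, 2 and 3, a log2 fold change of 1.04 ± 0.29 (SE) with an adjusted p of 0.367 in edgeR's test. Replicates 1 and 2 stayed just inside 2-fold and replicate 3 was beyond it. KCNG1 had 43.5 CPM against 33.3, 31.7 and 26.4, lower in each but within 2-fold.

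KCNQ3, a slow voltage-gated channel that damps repetitive firing, had 3.46 CPM with the empty vector and 5.14, 4.09 and 7.30 in replicates 1, 2 and 3, and was beyond 2-fold in replicate 3 alone. KCNQ5, a channel of the same group, stayed within 2-fold of 1.62 CPM. Among the fast-inactivating A-type genes, KCND1 and KCND3 stayed within 2-fold of their empty vector level throughout.

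Of the 16 inward rectifiers 6 passed the level filter. KCNJ2 (ENSG00000123700.5, chr17:70168673-70180048, plus strand), which sets the resting potential of muscle, was called higher. It had 12 counts with the empty vector and 130, 92 and 63 in replicates 1, 2 and 3, or 0.50 CPM against 2.09, 1.54 and 2.02, with ratios of 4.18 (95% interval 1.82 to 11.8), 3.08 (1.31 to 8.83) and 4.03 (1.66 to 11.8). The opposite-strand gene KCNJ2-AS1 had at most 12 counts in any library. KCNJ4 (ENSG00000168135.4, chr22:38426327-38455199, minus strand), a neuronal relative of KCNJ2, was called lower, with 38 counts against 46, 18 and 14. At 1.58 CPM against 0.739, 0.302 and 0.448 its replicate 1 was close to the 2-fold line, and the call was lost with a prior count of 5, with TMM factors over all genes and with length and GC trends removed.

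KCNJ8, the pore of the ATP-sensitive channel of blood vessels, was the highest inward rectifier. It had 14.0 CPM with the empty vector and 7.81, 7.35 and 6.11 in replicates 1, 2 and 3, a ratio of 0.558, 0.525 and 0.437. KCNJ11, the ATP-sensitive pore of pancreatic beta cells, had 40 counts against 56, 60 and 6, so replicate 3 was far below the others. KCNJ12 had 3.17 CPM against 2.57, 2.18 and 2.56, while its near-identical copy KCNJ18 had 0 counts in every library; reads of such copies can be assigned to either gene or discarded, so both values are uncertain. Below the filter, KCNJ14 had 5 counts against 46, 70 and 53, a gene named here after its values were seen. Its exons overlap other annotated exons on both strands, so its counts are uncertain.

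The two-pore family, which carries background leak current, had 6 of 15 genes above the filter. KCNK6 (ENSG00000099337.5, chr19:38319844-38332076, plus strand), which gives a weak current found in lysosomes and blood vessels, was called lower, with 58 counts with the empty vector and 64, 56 and 32 in replicates 1, 2 and 3. Its 2.42 CPM against 1.03, 0.938 and 1.02 gave log2 differences of -1.20, -1.32 and -1.20. KCNK2, a channel opened by stretch and lipids, showed an even tighter shift just short of the rule, 2.33 CPM against 1.16, 1.17 and 1.15. KCNK5, an acid-sensitive channel, was level at 17.2 CPM against 18.3, 17.7 and 20.4. KCNK1 was lower throughout, 11.1 CPM against 7.21, 7.86 and 2.94, and most so in replicate 3.

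Calcium-activated channels were the family with a median above 0, 0.54 over the 5 genes that passed, and it was 0.64, 0.76 and -0.15 in replicates 1, 2 and 3. Removing length and GC trends lowered it to 0.12. KCNMA1 (ENSG00000156113.24, chr10:76869601-77638369, minus strand), the pore of the large-conductance BK channel, was called higher. It had 145 counts with the empty vector and 857, 766 and 384 in replicates 1, 2 and 3, or 6.04 CPM against 13.8, 12.8 and 12.3. The 3 libraries were tightly grouped, with ratios of 2.28 (95% interval 1.77 to 2.96), 2.12 (1.65 to 2.77) and 2.03 (1.55 to 2.7), and the call was lost when length and GC trends were removed, which lowered the mean log2 difference from 1.09 to 0.18. KCNT2, a sodium-activated relative, was higher within 2-fold, 26.5 CPM against 41.4, 44.8 and 31.0. The small-conductance genes KCNN1, KCNN2 and KCNN3 differed between the labelled knockdown libraries and are taken up with replicate 3 below.

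Auxiliary genes showed few differences shared by all 3 libraries. KCNIP3 (ENSG00000115041.14, chr2:95297304-95386083, plus strand), a calcium sensor that binds KCND channels and also acts in the nucleus, was the only one called, at 38 counts with the empty vector and 24, 30 and 19 in replicates 1, 2 and 3. That was 1.58 CPM against 0.385, 0.503 and 0.608, with ratios of 0.244 (95% interval 0.108 to 0.528), 0.317 (0.150 to 0.659) and 0.384 (0.156 to 0.879). KCNAB3, a cytoplasmic beta subunit, had 1.71 CPM against 0.803, 1.04 and 0.768, and replicate 2 kept it from the rule. The other beta subunits were within 2-fold, KCNAB1 at 9.29 CPM against 12.4, 12 and 11.4 and KCNAB2 at 2.83 against 2.17, 1.68 and 1.79. KCNMB4, the neuronal BK beta subunit and the highest auxiliary gene, had 37.2 CPM against 23.8, 24.6 and 40.9. KCNE1, the partner of KCNQ1 in the slow cardiac current, was below the filter with 2 counts against 60, 42 and 16 and is named after its values were seen.

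Per length, the highest potassium channel genes were 12 genes between 12.9 and 1.68 CPM per kb of annotated exon, averaged over the group means. KCNG3 led, at 8.44 CPM per kb with the empty vector and 16.1, 15.5 and 20.6 in replicates 1, 2 and 3. KCNG1 and KCNMB4 followed with 8.0 and 7.62 CPM per kb in the empty vector library. KCNK5, KCNT2 and KCNJ8 lay between 4.24 and 4.79 CPM per kb averaged over the group means, and their ranges over the 4 libraries overlapped. KCNA6, KCNK12, KCNK1, KCNS3 and KCNA5 were also among the 12. KCNA5 was close to the empty vector level of 1.67 CPM per kb, at 1.31, 1.51 and 2.24 in the replicates. All of the exon length of KCNA6 is shared with GALNT8 on the same strand in the annotation, so its level is uncertain. KCNH2 ranked 18 and KCNH6 ranked 26 of 95.

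**Figure D3:**
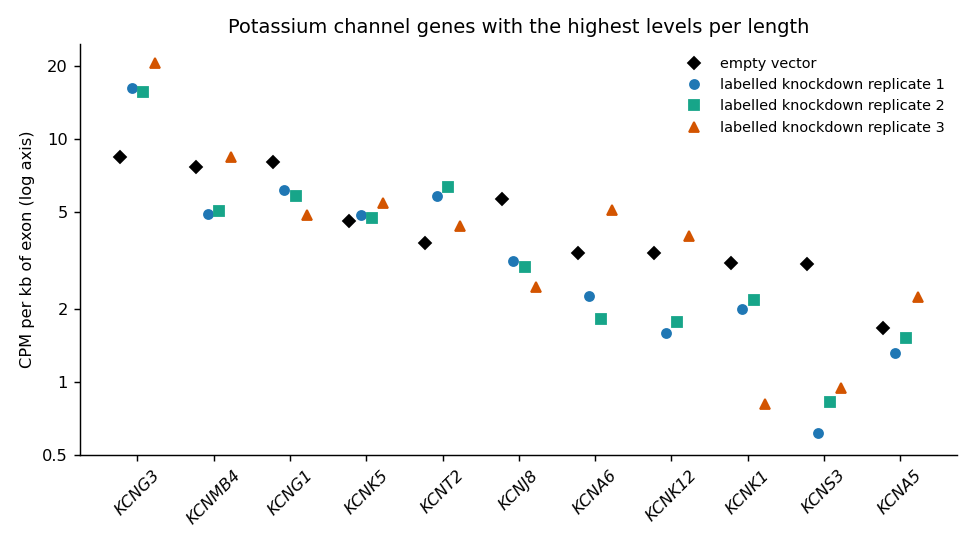
CPM per kb of annotated exon (vertical log axis) of 11 of the 12 highest potassium channel genes, each point 1 library: the empty vector library and labelled knockdown replicates 1, 2 and 3. KCNG3 lies highest, at 8.44 in the empty vector library and up to 20.6 in replicate 3, and KCNS3 shows the widest gap between the empty vector library (3.06) and all 3 labelled knockdown libraries (0.616 to 0.940).

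Among the 44 genes below the filter the level ran from 0 to 0.970 CPM, and 15 were under 0.1 CPM. KCNE5, KCNG4, KCNJ18 and KCNK18 had 0 counts in all 4 libraries, and 7 genes in all had no more than 3 counts in any. At least 1 count was seen for 82 of the 95 genes in the empty vector library and for 91, 85 and 83 in replicates 1, 2 and 3, which is also the order of the library totals. The genes just inside the filter were KCNJ4 (1.04 CPM) and KCNIP3 (1.04 CPM), both called lower, and those just outside were KCNK17 (0.970 CPM) and KCNJ9 (0.911 CPM). Over the 95 genes the summed level was 489 CPM with the empty vector and 461, 451 and 508 CPM in replicates 1, 2 and 3.

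Replicate 3 decided how many genes were called higher. Without it 8 of the 51 genes were higher in replicates 1 and 2, where the whole table gave 9.55%, and 6 were lower, where it gave 5.49%. The 5 genes added on the higher side were KCND2, KCNJ6, KCNK3, KCNN3 and KCNQ1, and all 9 called genes were among the 14. edgeR's test without replicate 3 takes its spread from replicates 1 and 2 alone. It called 34 of the 77 potassium channel genes tested, where the share over the whole table was 44.7%.

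Among the 51 genes, 10 were at least 2-fold lower in replicate 3 than in both other labelled knockdown replicates (19.6%, where all genes gave 13.1%) and 4 were at least 2-fold higher (7.84%, where all genes gave 6.19%). KCNQ1, the pore of the slow cardiac repolarising current, was the most divided: 17 counts in the empty vector library, 163 and 183 in replicates 1 and 2, and 4 in replicate 3. Its levels were 0.708 CPM against 2.62, 3.07 and 0.128, so that replicates 1 and 2 lay above the empty vector library and replicate 3 below it. KCNQ1OT1, a long noncoding RNA transcribed from the opposite strand of KCNQ1, had 15 CPM against 23.4, 24.1 and 49.2. It was highest in replicate 3, where KCNQ1 was lowest, but both genes were above the empty vector level in replicates 1 and 2. A link between them was not tested. In KCNQ1, 177 of 4447 exon bases overlap opposite-strand genes, KCNQ1OT1 among them, and the strand setting is not stated.

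KCND2, an A-type channel of neuronal dendrites, had 2.17 CPM with the empty vector and 11.5, 11.6 and 3.07 in replicates 1, 2 and 3. KCNK3, an acid-sensitive leak channel, had 1.08 CPM against 5.64, 5.86 and 1.25. KCNJ6, a G-protein-gated channel of neurons, had 1.83 CPM against 6.15, 5.36 and 0.960. In KCND2, KCNK3 and KCNJ6 replicate 3 was within counting error of the empty vector library and only replicates 1 and 2 stood high.

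The small-conductance channels, which are gated by calcium through calmodulin and slow neuronal firing, shared low values in replicate 3. KCNN1 had 9.71 CPM with the empty vector and 4.96, 4.81 and 1.12 in replicates 1, 2 and 3. KCNN2 had 9.71 CPM against 9.96, 11.3 and 3.39, and KCNN3 had 16.3 CPM against 36.9, 33.0 and 14.7. Thus KCNN1 was lower in every labelled knockdown library, KCNN2 only in replicate 3, and KCNN3 was higher only in replicates 1 and 2. KCNJ11, KCNK1 and KCNE3 were also at least 2-fold lower in replicate 3 than in the other labelled knockdown replicates.

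The 4 genes highest in replicate 3 included KCNA6, KCNC4 and KCNK12. KCNC4, a fast-spiking channel relative of KCNC1, had 26.5 CPM with the empty vector and 18, 17.4 and 51.7 in replicates 1, 2 and 3. KCNK12, a two-pore gene, had 22.5 CPM against 10.6, 11.8 and 26.6. KCNC1 and KCNC4 both had their highest labelled knockdown level in replicate 3. Below the filter, KCNJ9 had 0.833 CPM against 0.562, 0.385 and 2.02, and KCNJ13 had 0.375 against 0.305, 0.151 and 1.86. Both were at least 2-fold higher in replicate 3 and 2-fold lower in replicate 2, where the counting interval of the ratio included 1. In KCNJ13, 722 of 2977 exon bases overlap GIGYF2 on the opposite strand, and GIGYF2 had 62.4 CPM against 76.5, 75.3 and 123. With the strand setting not stated, the level of KCNJ13 is uncertain. KCNK13 had 2 counts against 4, 0 and 10, too few for a direction.

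Markers of other cell types differed between the same libraries. The 10 neuronal markers (TUBB3, STMN2, DCX and others) all had a count in each library. They summed to 111 CPM with the empty vector and 162, 164 and 113 CPM in replicates 1, 2 and 3. GAP43 was the largest part, at 52.7 CPM against 54.7, 61.0 and 39.4, and the members differed. MAP2 was called higher, at 9.17 CPM against 24.0, 22.8 and 34.5, while RBFOX3 was lower in each, at 17.7 against 12.3, 12.8 and 6.59. ELAVL4 had 0.667 CPM against 2.22, 2.01 and 0.064, the last from only 2 counts. The median log2 difference of the 10 neuronal markers was 1.26, 1.21 and 0.03. The 6 glial markers summed to 50.7 CPM against 126, 131 and 19.5, with S100B at 0 in replicate 3, and the 8 mesenchymal markers to 513 against 657, 647 and 434, with DCN at 0 in the empty vector library and in replicates 1 and 3. Most of the mesenchymal sum was THY1, at 362 CPM against 382, 394 and 210, and the median log2 difference of the 7 mesenchymal markers that passed was 0.51, 0.47 and 0.52 in replicates 1, 2 and 3, so the lower sum in replicate 3 ran against most of them. The 5 epithelial markers summed to 1235 CPM against 888, 897 and 900. The part of these cell types in the differences of KCND2, KCNK3, KCNJ6 and KCNN3 was not tested.

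**Figure D4:**
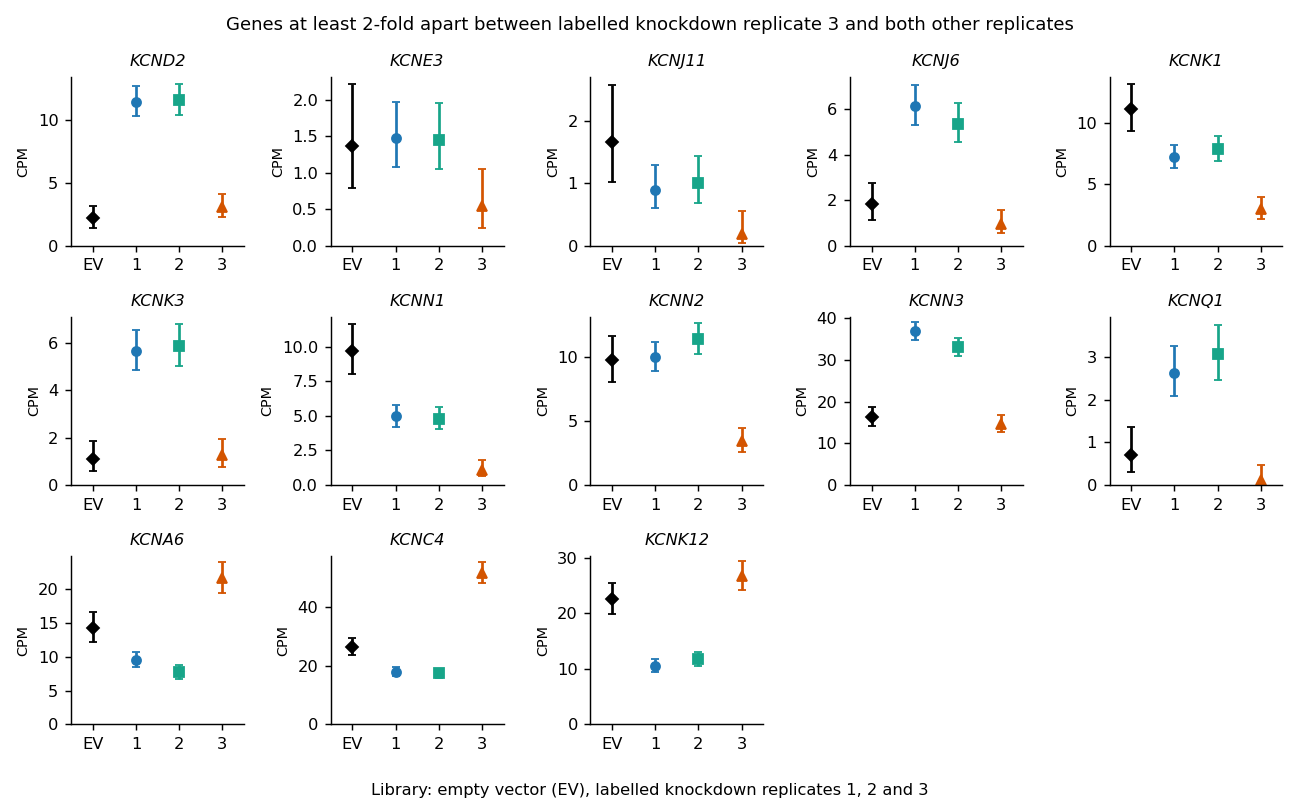
CPM (vertical axes from 0) of 13 potassium channel genes at least 2-fold apart between labelled knockdown replicate 3 and both other labelled knockdown replicates, in the empty vector library (EV) and replicates 1, 2 and 3; bars are exact 95% Poisson intervals for counting error. In KCND2, KCNK3, KCNJ6 and KCNN3 replicate 3 lies by the empty vector library, in KCNQ1, KCNN1, KCNN2 and KCNK1 it lies below all the other libraries, and in KCNC4 above them.

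Channel partners that carry no KCN symbol with a number were read from a list of 16 genes. Of these 10 passed the level filter, 1 was higher (beside 3.66% of all genes), 0 were lower (beside 2.72%), and the median log2 difference was 0.46. It was 0.54, 0.56 and -0.37 in replicates 1, 2 and 3, so replicate 3 went the other way. The higher gene was LRRC55, a gamma subunit of the BK channel, with 2.25 CPM with the empty vector and 9.57, 6.67 and 8.96 in replicates 1, 2 and 3. The other BK gamma genes were near 0: LRRC38 had 10 counts against 8, 0 and 6, LRRC52 had 6 against 2, 2 and 0, and LRRC26 had 2 against 2, 0 and 0. DPP6 and DPP10, the extracellular partners of KCND channels, were higher without meeting the rule, DPP6 at 9.67 CPM against 16.6, 16.8 and 20.3 and DPP10 at 7.58 against 12.9, 12.9 and 10.8. AMIGO1, a partner of voltage-gated channels, followed the pattern of KCND2, at 2.92 CPM against 7.48, 6.87 and 1.86.

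Of 35 sodium, calcium, cyclic-nucleotide and other related channel genes, 23 passed the filter, 2 were higher and 2 lower (beside 3.66% and 2.72% of all genes), with a median log2 difference of 0.40. It was 0.51, 0.23 and 0.27 in replicates 1, 2 and 3. The higher genes were SCN3B, a sodium channel beta subunit, at 0.625 CPM against 19.2, 17.9 and 5.92, and SCN9A, a sodium channel of sensory neurons, at 1.29 against 3.63, 3.08 and 4.10. The lower genes were HCN2, a pacemaker channel with 8.67 CPM against 1.99, 2.48 and 1.73, and HVCN1, a proton channel with 4.04 against 1.19, 1.83 and 1.54.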

How the data were processed

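Raw counts were deposited by the authors in a separate table for each library, and per the submitters' processing notes STAR 2.7.11b, featureCounts 2.0.6 and DESeq2 were used with hg38. The strand setting and annotation release are not given in the sources used here. Count columns carry a LacZ control name and numbered GKAP_KIF27 set names, per the file headers. These names differ from the sample labels, and the groups here follow the labels of the series record. Between 65.2% and 68.0% of nonzero counts were even, so 95% intervals (exact Poisson for levels, Clopper-Pearson for ratios) used counts divided by 2. Intervals and floors cover counting error only.

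Counts were scaled with TMM factors from edgeR 4.0.16 (R 4.3.3) over genes kept by filterByExpr, and log2 CPM used a prior count of 2. Genes entered at a mean of group means of 1 CPM. edgeR's quasi-likelihood test ran on the whole table, as did DESeq2 1.42.0 and limma 3.58.1. Coordinates and exon lengths came from GENCODE 29 (GRCh38), which held all 95 genes, and promoter windows came from RefSeq (GRCh38.p14).

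Genes named are all EAG genes, called genes, the 12 highest per kb, the 2 largest mean differences per family, genes beyond 2-fold on both sides, and those with 20 counts in a library and 0 in another, of which there were none; the remaining genes named were picked after their values were seen. The members and lists were chosen with earlier results of these data known. TMM factors over all genes were tried after the data were seen. Protein sequences were not used here. Results for some of the genes are not reported here, and the figures leave those genes out.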

Additional observations from a re-analysis of the deposited data

How the results depend on the processing

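With 1 empty vector library, no result has a replicate check on the control side, and genes near 1 CPM rest on few counts. No paired analysis was possible because the control arm is a single library that carries no replicate number. All 9 called genes kept the direction of their mean difference in every alternative run.

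With a level minimum of 0.1 CPM, 6 of 80 genes were higher and 7 lower, beside 6.04% and 3.89% of all genes. With a minimum of 5 CPM, 1 of 21 was higher and 2 were lower, beside 3.21% and 2.16%. Calling by the mean difference gave 6 higher and 10 lower of 51, beside 8.53% and 6.76% of all genes. A 1.5-fold rule gave 4 higher and 13 lower of 51, beside 10% and 9.62%. Leaving out 1 labelled knockdown replicate gave 3 to 8 higher and 6 to 8 lower, the 8 higher without replicate 3. All genes gave 3.82% to 9.55% higher and 3.08% to 5.49% lower in the same runs. The median of -0.27 was -0.29 with DESeq2 size factors, -0.18 with total counts, -0.23 with TMM factors over all genes, -0.042 and -0.37 with a minimum of 0.1 and 5 CPM, and -0.28 to -0.25 without 1 replicate. The DESeq2 Wald test called 2 genes, and edgeR's test called 0 to 34 without 1 replicate. The 34, of 77 tested, came without replicate 3, where the whole table gave 44.7%. With longest transcripts for length, 11 of the 12 highest genes per kb were the same. Total counts and the trend removal each lost a called gene (KCNH2 for the first, KCNJ4 and KCNMA1 for the second). Among 34 named genes, 11 of 367 alternative values moved by more than the SD between replicates, and the mean changed sign in 6 genes, none of them called. The prior count of 5 and TMM factors over all genes each lost KCNJ4. The cause was not tested.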
